A study of Homo sapiens with 60 samples.

Results

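The glycolysis and hypoxia response genes described here are 38 genes named by function: the enzymes that break glucose down to lactate, the transporters that bring glucose in and carry lactate out, and genes known to be switched on when oxygen is low. They were taken by symbol from the 60675 genes of the deposited table, not by any measured value, and 37 of the 38 were expressed highly enough to be among the 16356 genes tested. The member without a test was SLC2A3, the glucose transporter GLUT3, which had 2 counts in all 60 libraries together. The RNA came from HT29 cells, an established line from a human colorectal adenocarcinoma, after 24 h with a water extract of a tonifying herbal medicine or with the solvent alone.

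The extracts were Cinnamomi Cortex (cinnamon bark), Astragali Radix, Cnidii Rhizoma and Rehmanniae Radix Preparata, which are single plant drugs, and the formulae Sagunja-tang and Samul-tang, each at 500, 100 and 20 µg/mL in 3 libraries per dose. For Paeoniae Radix there was 1 library at each dose, so it could not be tested. All comparisons with the untreated state used the same 3 vehicle libraries, in which the cells received dimethyl sulfoxide (DMSO), given as 0.1% in the sample labels and as 2% in the design text. According to that text, an extract toxic below the top dose was given at its own 20% inhibitory concentration and dilutions of it, so the doses are nominal. The labels do not state whether replicates came from separate cultures; if they did not, the spread behind each p-value is technical.

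Glycolysis splits glucose into pyruvate in the cytosol, and lactate dehydrogenase turns pyruvate into lactate, which cells export. Hypoxia-inducible factor (HIF) raises the genes of this route when oxygen falls; in oxygen, the prolyl hydroxylases EGLN1, EGLN2 and EGLN3 mark the HIF alpha subunit for destruction, so HIF is governed mainly at the protein, which RNA counts do not measure. Many colorectal tumour cells run glycolysis strongly even in oxygen.

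HIF binds short DNA elements with the core letters ACGTG or GCGTG, and promoter sequences are printed here for 5 members that the results turn on. RefSeq (GRCh38.p14) gave a window from 250 bases before to 50 bases after the start of transcription for 34 of the 38 members. Capitals mark every match to ACGTG or GCGTG on either strand; a match on the other strand reads as CACGT or CACGC, and matches may overlap. ALDOC and LDHA are shown for their many matches. SLC2A1 and PFKFB4 are shown because their RNA rose with Cinnamomi Cortex and each window holds 1 match, and CA9 because a match lies close before its start. The windows are chr17:28576846-28577145 (minus strand) for ALDOC, chr11:18394313-18394612 (plus) for LDHA, chr1:42958819-42959118 (minus) for SLC2A1, chr3:48556754-48557053 (minus) for PFKFB4 and chr9:35673678-35673977 (plus) for CA9, and each sequence reads 5′ to 3′ along the gene. All 5 RefSeq starts lie inside the gene spans of GENCODE 29.
ALDOC: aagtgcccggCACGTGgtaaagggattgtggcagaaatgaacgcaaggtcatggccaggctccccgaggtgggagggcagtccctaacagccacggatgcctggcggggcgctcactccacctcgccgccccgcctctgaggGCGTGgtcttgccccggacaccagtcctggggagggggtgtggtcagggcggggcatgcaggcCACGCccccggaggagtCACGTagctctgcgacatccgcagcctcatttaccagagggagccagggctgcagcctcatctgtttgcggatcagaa
LDHA: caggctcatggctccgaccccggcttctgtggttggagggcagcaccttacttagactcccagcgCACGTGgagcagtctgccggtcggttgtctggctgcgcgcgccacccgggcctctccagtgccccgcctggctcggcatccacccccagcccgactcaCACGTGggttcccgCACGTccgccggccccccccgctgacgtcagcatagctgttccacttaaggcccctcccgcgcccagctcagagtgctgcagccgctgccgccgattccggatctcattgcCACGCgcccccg
SLC2A1: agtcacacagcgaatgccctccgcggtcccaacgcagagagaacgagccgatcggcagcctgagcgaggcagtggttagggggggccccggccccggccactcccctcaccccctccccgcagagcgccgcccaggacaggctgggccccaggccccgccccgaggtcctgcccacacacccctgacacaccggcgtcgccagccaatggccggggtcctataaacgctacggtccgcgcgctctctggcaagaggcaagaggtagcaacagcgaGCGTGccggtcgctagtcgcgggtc
PFKFB4: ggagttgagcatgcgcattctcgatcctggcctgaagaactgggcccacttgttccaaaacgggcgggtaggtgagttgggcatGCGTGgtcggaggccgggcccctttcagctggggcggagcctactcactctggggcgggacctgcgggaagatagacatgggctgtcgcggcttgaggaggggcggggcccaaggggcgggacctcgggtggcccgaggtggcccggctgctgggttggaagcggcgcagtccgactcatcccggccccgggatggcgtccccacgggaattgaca
CA9: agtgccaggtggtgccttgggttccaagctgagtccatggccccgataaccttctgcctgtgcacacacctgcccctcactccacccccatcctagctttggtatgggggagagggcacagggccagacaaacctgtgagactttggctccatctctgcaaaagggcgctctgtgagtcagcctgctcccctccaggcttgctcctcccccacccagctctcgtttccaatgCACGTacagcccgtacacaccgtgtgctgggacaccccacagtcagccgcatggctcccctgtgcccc

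ALDOC held 5 matches and LDHA 6, including palindromic CACGTG sites that count once on each strand. The SLC2A1 match began 26 bases after the start, and no match lay before it in the window. In CA9 the match began 18 bases before the start. Windows with at least 1 match to either motif made up 70.6% of the members' windows (24 of 34), and 48.4% of the 27305 windows of all genes. For ACGTG alone the shares were 44.1% (15 members) and 21.6%, and for GCGTG alone they were 47.1% (16 members) and 36.3%. Windows with 2 or more matches were 29.4% of the members' and 23.3% of all. SLC16A3, PGAM1 and EGLN3, whose RNA also enters the results, had no match in the window. A match is a description of the letters and does not show binding.

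The 60 libraries held 20459346 to 36253747 counts. Markers of colon epithelium summed to between 10800 and 13600 CPM, counts scaled to the size of the library, in every library, while fibroblast markers summed to 1.5 to 2.78 CPM and leukocyte markers to 6.51 to 13.2 CPM. Earlier work on these data had shown that the libraries fall into 2 sets, and that Astragali Radix and Cinnamomi Cortex are the treatments with libraries in both. Set 1 holds the vehicle, replicate 1 of every Cinnamomi Cortex and Astragali Radix group, and all of Rehmanniae Radix Preparata and Cnidii Rhizoma (27 libraries), and set 2 holds both formulae and replicates 2 and 3 of those 2 herbs (30 libraries). The first principal component, with 15.7% of the variance, parted 27 of 27 from 29 of 30; replicate 2 of Cinnamomi Cortex at 500 µg/mL lay on the side of set 1, and values with this library counted in set 1 (the moved set term, tried after seeing the data) are given where they change a call. The formulae share no set with the vehicle, and what separates the sets is not stated in the labels. Each comparison with the vehicle is therefore also given from a fit with a term for the set, which rests on the 6 Cinnamomi Cortex and Astragali Radix groups that lie in both.

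In vehicle cells glycolytic enzymes were the most abundant members. Per kilobase of exon, GAPDH, which oxidises glyceraldehyde 3-phosphate, stood at 1230 ± 65 CPM per kb (SD, n = 3). Next came the aldolase ALDOA at 295 ± 1.57, the pyruvate kinase PKM at 290 ± 2.47, the enolase ENO1 at 261 ± 20.6 and the isomerase TPI1 at 255 ± 8.49 CPM per kb, and ENO1 and TPI1 did not differ beyond their spread. The glucose transporter SLC2A1 (GLUT1) was at 109 CPM per kb, and with SLC2A3 near 0 it was the glucose transporter of the list that these cells expressed. Among hypoxia targets CA9, a carbonic anhydrase on the cell surface, stood at 17.5 CPM per kb. ALDOC, an aldolase best known from brain, stood at 6.52, and PFKFB4, which sets the level of the glycolytic activator fructose 2,6-bisphosphate, at 0.583 CPM per kb. Members at the low end were BNIP3, a mitophagy receptor, at 0.526 and ANKRD37 at 0.276 CPM per kb. BNIP3 values are uncertain in themselves, since its pseudogenes held 50.7% to 127% of its own count in these libraries.

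**Figure D1:**
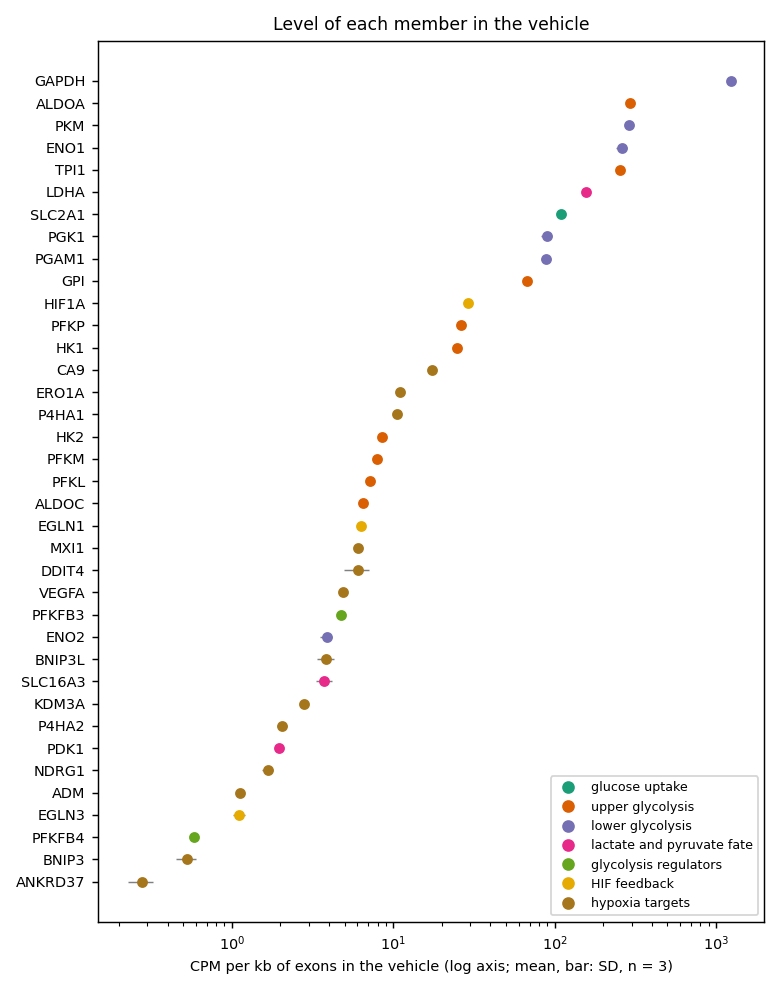
Level of each tested member in the 3 vehicle libraries, in CPM per kilobase of exon on a log axis, coloured by role; points are means and bars SD (n = 3). GAPDH lies highest at 1230 CPM per kb and ANKRD37 lowest at 0.276.

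Across the 57 tested libraries most members kept within a narrow range. The highest library was 1.22 times the lowest for TPI1 and for the hexokinase HK1. Wider ranges were found for ALDOC (2.15 times), PFKFB4 (2.34 times), the stress-response gene DDIT4 (2.31 times), the lactate exporter SLC16A3 (2.1 times) and ANKRD37 (5.7 times), the last at very low counts.

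With Cinnamomi Cortex at 500 µg/mL, genes along the route from glucose uptake to lactate rose. Genes were called at an adjusted p under 0.05 by edgeR's quasi-likelihood test with Benjamini-Hochberg adjustment over all genes tested. Against the vehicle 19 of the 37 members rose and 1 fell. Of all genes tested 12.7% were called, 6.09% higher and 6.62% lower. The members' median log2 fold change was 0.19, from -0.34 to 0.79, beside 0.003 for all genes, and 32 of the 37 were above 0. By role, SLC2A1 rose, as did 5 of 9 genes of upper glycolysis, 4 of 6 of lower glycolysis, 1 of 3 of lactate handling, 1 of 2 regulators and 6 of 13 hypoxia targets. Of HIF1A and the hydroxylases EGLN1 and EGLN3, EGLN3 rose and EGLN1 fell.

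ALDOC, at chr17:28573115-28577264 on the minus strand (GRCh38), showed a large and even change. Its level was 18.2, 19.6 and 19.5 CPM in the vehicle and 30.5, 33.1 and 35.1 CPM with Cinnamomi Cortex. All treated libraries lay far above all vehicle libraries. The log2 fold change was 0.79 (SE 0.08, adjusted p = 1e-10), and it was 0.75 with the set term. Leaving out any 1 library moved it between 0.74 and 0.84.

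PFKFB4, at chr3:48517684-48562015 (minus strand), makes and breaks fructose 2,6-bisphosphate and so tunes the phosphofructokinase step. It stood at 3.56, 3.61 and 3.51 CPM in the vehicle and at 6.95, 5.61 and 6.07 CPM with the extract. The treated libraries were again separate from the vehicle, at a low level. Its log2 fold change was 0.79 (SE 0.15, adjusted p = 0.0001), and 0.77 with the set term. PFKFB3, the other regulator of this kind in the list, had a log2 fold change of 0.12 and was not called.

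SLC2A1, at chr1:42925375-42959176 (minus strand), brings glucose into the cell. Its vehicle levels of 537, 521 and 491 CPM compared with 628, 621 and 709 CPM under the extract. The groups did not overlap, and replicate 3 was the highest treated library. The log2 fold change was 0.34 (SE 0.05, adjusted p = 6.3e-07), and 0.30 with the set term.

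In upper glycolysis the phosphofructokinase PFKP went from 129, 126 and 126 CPM to 149, 161 and 175 CPM, a log2 fold change of 0.35 (SE 0.05, adjusted p = 2.4e-06). ALDOA went from 1150, 1160 and 1150 CPM to 1390, 1380 and 1500 CPM, with a log2 fold change of 0.30 (SE 0.04, adjusted p = 9.4e-07). Both changes separated all treated from all vehicle libraries. HK1 rose by a log2 fold change of 0.14 and TPI1 by 0.15, which are small changes in abundant genes. HK2, the hexokinase that HIF raises, was at 0.16, the isomerase GPI at 0.12, PFKL at 0.13 and PFKM at 0.23, and none of these 4 was called.

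In lower glycolysis PKM held 2480, 2460 and 2500 CPM in the vehicle and 2920, 2780 and 2890 CPM with the extract. Its log2 fold change was 0.21 (SE 0.05, adjusted p = 0.0057), and every treated library was above every vehicle library. For PGAM1, the phosphoglycerate mutase, 242, 230 and 211 CPM compared with 254, 259 and 278 CPM, a log2 fold change of 0.21 (SE 0.05, adjusted p = 0.0035). ENO1 held 1480, 1380 and 1270 CPM and then 1550, 1530 and 2050 CPM. Its value leaned on 1 treated library, replicate 3. The log2 fold change was 0.31 (SE 0.08, adjusted p = 0.0077), and 0.16 (adjusted p = 0.25) without that library and 0.15 (adjusted p = 0.11) with the set term; it was 0.21 (adjusted p = 0.0019) with the moved set term.

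ENO2, the enolase best known from neurons, overlapped between the groups, at 17.9, 16.7 and 15 CPM in the vehicle and 19.9, 17.5 and 23 CPM with the extract. Its log2 fold change of 0.27 (SE 0.09, adjusted p = 0.036) became 0.24 (adjusted p = 0.1) with the set term and 0.17 (adjusted p = 0.35) without replicate 3 of the extract. GAPDH (0.15, adjusted p = 0.12) and PGK1 (0.15, adjusted p = 0.098) had similar fold changes and were not called.

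Lactate dehydrogenase A, LDHA (chr11:18394388-18408425, plus strand), went from 976, 945 and 984 CPM to 1140, 1130 and 1040 CPM. Its log2 fold change was 0.19 (SE 0.04, adjusted p = 0.00097), and 0.24 with the set term. The libraries of the groups were separate. SLC16A3, the lactate exporter MCT4, was at 37.9, 32.4 and 30.9 CPM in the vehicle and at 33.4, 38 and 61.9 CPM with the extract, so the groups overlapped. It was not called (0.38, adjusted p = 0.17). PDK1, the kinase that inhibits pyruvate dehydrogenase inside mitochondria, was also not called (-0.10, adjusted p = 0.32).

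Hypoxia targets outside glycolysis included genes with separate groups and genes that leaned on single libraries. VEGFA, the vessel growth factor, went from 67.4, 69.7 and 74.1 CPM to 86.5, 86.5 and 80.3 CPM, a log2 fold change of 0.26 (SE 0.05, adjusted p = 0.00014). Its groups were separate. DDIT4, an inhibitor of mTORC1 that responds to hypoxia and to other stresses, was at 13.9, 13.3 and 9.83 CPM and then at 15.5, 16.3 and 22.7 CPM. Its log2 fold change of 0.54 (SE 0.13, adjusted p = 0.0045) lost its call without replicate 3 of the extract (0.36, adjusted p = 0.12), without replicate 3 of the vehicle (0.41, adjusted p = 0.062) and with the set term (0.35, adjusted p = 0.067), and kept it with the moved set term (0.43, adjusted p = 0.0068).

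The collagen prolyl hydroxylases P4HA1 (0.15, adjusted p = 0.047) and P4HA2 (0.24, adjusted p = 0.026), the MYC antagonist MXI1 (0.17, adjusted p = 0.048) and NDRG1 (0.38, adjusted p = 0.008) also rose. P4HA2, MXI1 and NDRG1 were not called with the set term, NDRG1 was called with the moved set term (0.32, adjusted p = 0.013), and each of these 4 lost its call when some single library was left out. CA9 stood at 29.3, 29 and 29.3 CPM in the vehicle and 29.3, 26.9 and 34.6 CPM with the extract, with a log2 fold change of 0.05 (SE 0.09, adjusted p = 0.8). The other targets not called were ADM at 0.28, ANKRD37 at 0.40, BNIP3 at -0.34, BNIP3L at 0.00, ERO1A at -0.01 and the histone demethylase KDM3A at 0.09.

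The hydroxylase genes moved in different directions. EGLN3 rose from 8.97, 7.69 and 7.77 CPM to 10.3, 10.4 and 11.4 CPM, a log2 fold change of 0.39 (SE 0.09, adjusted p = 0.0028). EGLN1 fell from 44.9, 46.4 and 45.8 CPM to 39.3, 39.4 and 41.1 CPM, a log2 fold change of -0.20 (SE 0.06, adjusted p = 0.029). In both the groups were separate. The EGLN1 change was -0.17 (adjusted p = 0.082) with the set term and -0.19 (adjusted p = 0.036) with the moved set term, and it was not called when any of 4 single libraries was left out. HIF1A itself (chr14:61695513-61748259, plus strand) was at 141, 150 and 156 CPM in the vehicle and at 163, 150 and 137 CPM with the extract (0.01, adjusted p = 0.95); with the set term its log2 fold change was 0.18 (adjusted p = 0.023), and with the moved set term 0.09 (adjusted p = 0.25), not called.

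With the set term, 15 members were called, all higher, beside 5.72% of all genes called higher, and 13 of them were among the 20 without the term. GAPDH (0.21, adjusted p = 0.021) and HIF1A were added. The same 13 and GAPDH (0.18, adjusted p = 0.038) were called with the moved set term. It did not call HIF1A, and it did call ENO1 (0.21, adjusted p = 0.0019), NDRG1 (0.32, adjusted p = 0.013), DDIT4 (0.43, adjusted p = 0.0068) and EGLN1 (-0.19, adjusted p = 0.036). Of the 20, 9 kept their call whichever single library was left out: SLC2A1, PFKP, ALDOA, ALDOC, PKM, LDHA, PFKFB4, VEGFA and EGLN3. The number of members called was 11 without replicate 3 of Cinnamomi Cortex, 11 without replicate 3 of the vehicle and 13 without replicate 2 of the vehicle. The members' summed share of all counts was 1.31% ± 0.02 in the vehicle and 1.49% ± 0.07 with the extract (SD, n = 3). Of the markers of colon epithelium 4 of 10 rose, among them KRT20 (0.46) and CEACAM5 (0.44), beside 6.09% of all genes. The summed level of the 10 was 11100 to 11600 CPM in the vehicle and 12100 to 13600 CPM with the extract. KRT8 and KRT18 made up most of that sum, with medians of 6180 and 3620 CPM over the 57 tested libraries. The medians of KRT20 and CEACAM5 were 276 and 7.89 CPM. The part of these markers in the result was not tested.

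**Figure D2:**
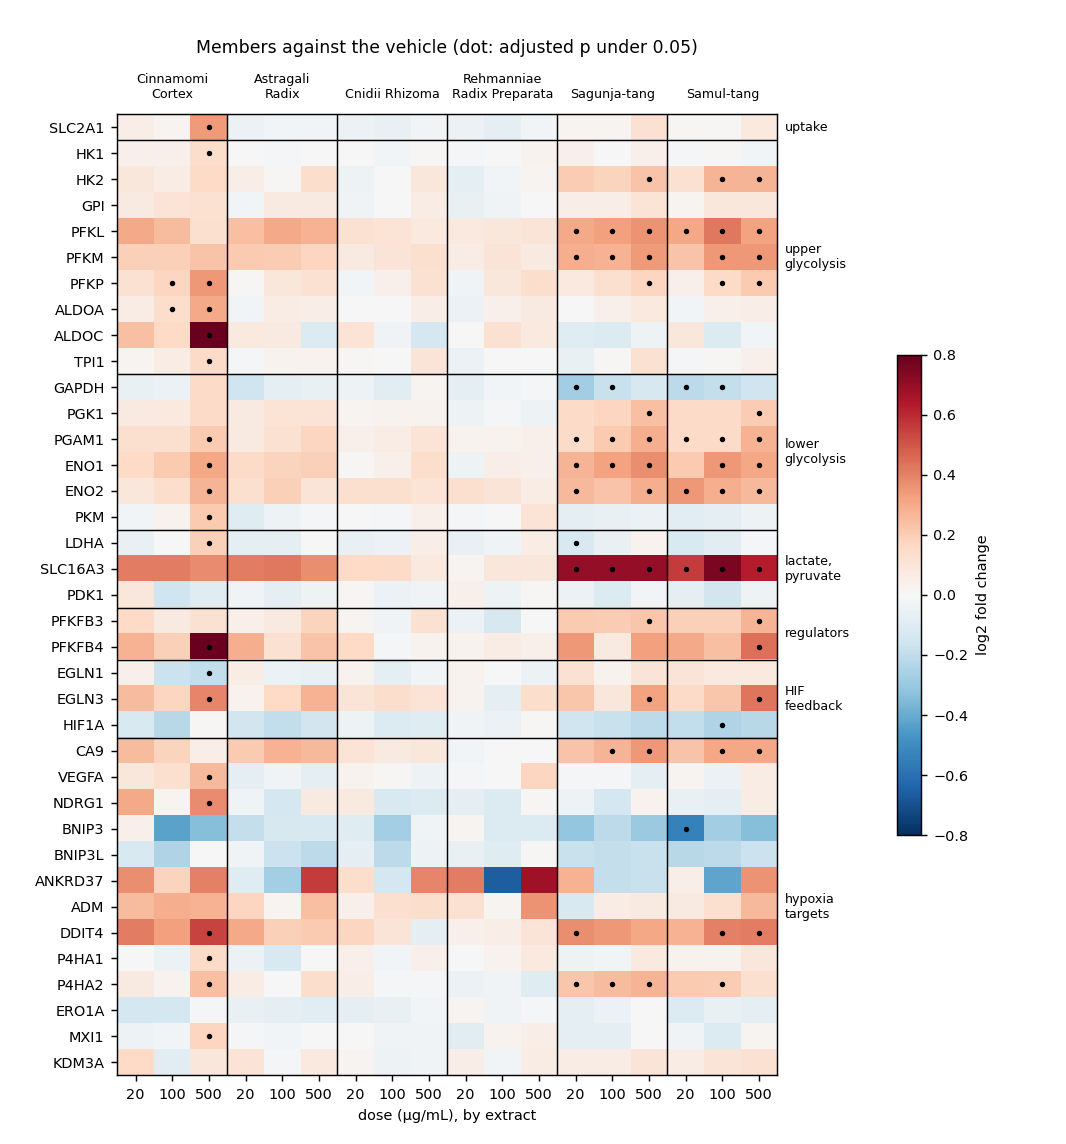
Log2 fold change of each tested member (rows, grouped by role) against the vehicle for the 6 extracts at 500, 100 and 20 µg/mL (columns); a dot marks an adjusted p under 0.05. Cinnamomi Cortex at 500 µg/mL has 20 marked members, and Astragali Radix, Cnidii Rhizoma and Rehmanniae Radix Preparata have 0 at any dose.

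At lower doses of Cinnamomi Cortex few members were called. At 100 µg/mL 2 members rose and 0 fell, while 3.74% of all genes were called higher. In the same edgeR test 17 members reached an unadjusted p under 0.05. PFKP, at 139, 142 and 148 CPM, had a log2 fold change of 0.17 (adjusted p = 0.036), and ALDOA, at 1190, 1350 and 1270 CPM, one of 0.14 (adjusted p = 0.043). Neither was called with the set term, and each lost its call when any of 5 single libraries was left out. At 20 µg/mL edgeR called 0 members, with 1.69% of all genes called; 13 members reached an unadjusted p under 0.05, and DESeq2 called 2.

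The top dose of Cinnamomi Cortex against its lowest does not involve the vehicle, and each dose had 1 library in set 1 and 2 in set 2. In this comparison 10 members rose and 2 fell, with 4.51% of all genes called higher and 5.58% lower. The median over the members was 0.13. ALDOC, at 21, 23.9 and 22.8 CPM with 20 µg/mL, was higher at 500 µg/mL by a log2 fold change of 0.54 (SE 0.08, adjusted p = 8.7e-07). The 3 libraries at each dose did not overlap. PFKFB4, at 3.75, 4.85 and 4.39 CPM with 20 µg/mL, gave 0.51 (SE 0.14, adjusted p = 0.013), without overlap. Leaving out replicate 1 of either dose ended the PFKFB4 call (0.43, adjusted p = 0.093, and 0.42, adjusted p = 0.083).

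SLC2A1, at 525, 546 and 536 CPM with the low dose, rose by 0.28 (SE 0.05, adjusted p = 2.1e-05). LDHA, at 955, 925 and 902 CPM, rose by 0.25 (SE 0.04, adjusted p = 1.7e-05). Both were separate between doses and kept their call whichever library was left out. The other members that rose were ALDOA (0.24), PFKP (0.23), PKM (0.23), GAPDH (0.21), MXI1 (0.21) and VEGFA (0.18). The RNAs that rose thus include those of a glucose transporter and of phosphofructokinase, aldolase, GAPDH, pyruvate kinase and lactate dehydrogenase enzymes. Of the phosphofructokinase genes PFKP was called, and PFKL and PFKM were not. GAPDH, VEGFA and MXI1 lost their calls when some single library was left out, at 0.19 (adjusted p = 0.11), 0.16 (adjusted p = 0.074) and 0.19 (adjusted p = 0.091) without replicate 1, 1 and 2 of the top dose.

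EGLN1, at 48.7, 43.4 and 48.9 CPM with 20 µg/mL, was lower at 500 µg/mL by a log2 fold change of -0.24 (SE 0.06, adjusted p = 0.0082). PDK1, at 29.9, 32.1 and 30.8 CPM, gave -0.19 (SE 0.06, adjusted p = 0.032) against 27.8, 28 and 25.4 CPM. The doses did not overlap for either gene. EGLN1 lost its call without replicate 3 at 20 µg/mL (-0.21, adjusted p = 0.059), and PDK1 did so without 3 libraries in turn, at -0.15 (adjusted p = 0.14) without replicate 3 at 500 µg/mL. Under the set term 13 members rose and 4 fell, beside 6.65% and 7.16% of all genes, and all 12 were kept. The added ones were TPI1 (0.13), P4HA1 (0.15) and ERO1A (0.14), which rose, and PFKL (-0.18) and CA9 (-0.21, adjusted p = 0.015), which fell. Of these 5, TPI1 (0.14, adjusted p = 0.034) was called with the moved set term, and P4HA1 (0.13, adjusted p = 0.085), ERO1A (0.08, adjusted p = 0.26), PFKL (-0.08, adjusted p = 0.36) and CA9 (-0.11, adjusted p = 0.19) were not. ENO1 (0.24) and P4HA2 (0.23) were called higher with it instead.

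Within the sets the ALDOC difference between doses was 0.53 in set 1 (adjusted p = 0.027) and 0.54 in set 2 (adjusted p = 0.00011). SLC2A1 gave 0.26 (adjusted p = 0.18) and 0.30 (adjusted p = 0.00024), and LDHA 0.26 (adjusted p = 0.057) and 0.25. For PFKFB4 the sets differed more in size, with 0.89 (adjusted p = 0.064) in set 1 and 0.33 (adjusted p = 0.28) in set 2. Set 1 has 1 library of each dose, so its test takes the spread from other groups.

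**Figure D3:**
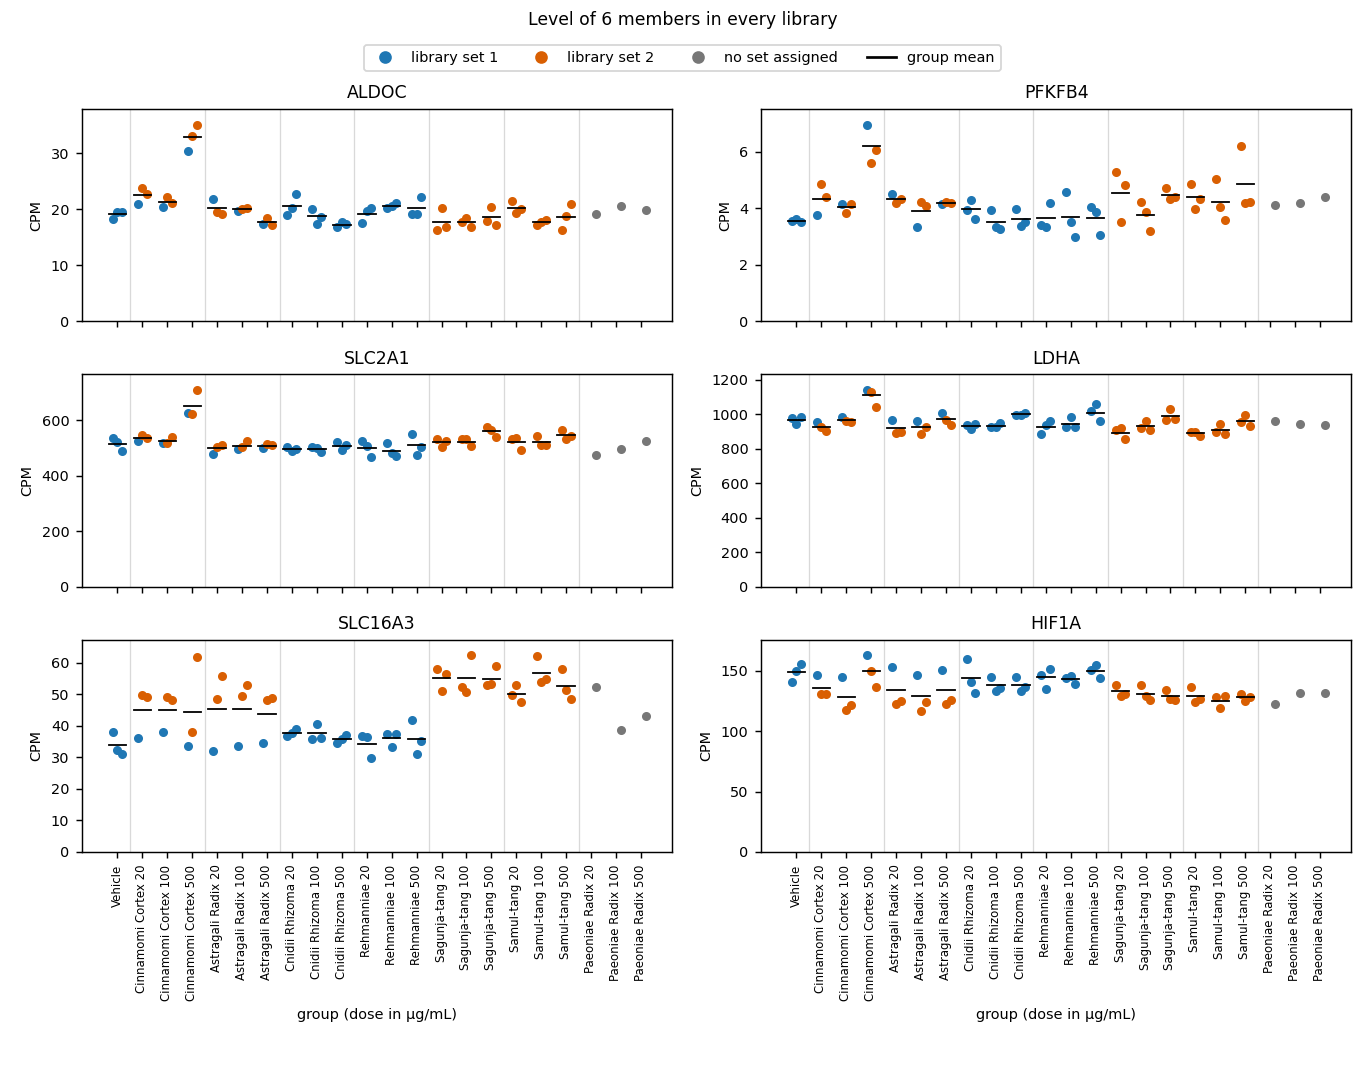
CPM of ALDOC, PFKFB4, SLC2A1, LDHA, SLC16A3 and HIF1A in every library, by group, with colour for the library set and grey for Paeoniae Radix. ALDOC at 30.5 to 35.1 CPM with Cinnamomi Cortex at 500 µg/mL lies above all other groups, while SLC16A3 and HIF1A differ by library set, except in replicate 2 of Cinnamomi Cortex at 500 µg/mL (38 and 150 CPM).

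Astragali Radix has the same arrangement of replicates over the sets as Cinnamomi Cortex, so the pair could be compared dose by dose. At 500 µg/mL 11 members were higher with Cinnamomi Cortex and 0 lower, with 4.9% of all genes called higher and 5.8% lower. ALDOC stood at 17.4, 18.4 and 17.3 CPM with Astragali Radix, and the log2 difference was 0.89 (SE 0.08, adjusted p = 1.9e-12). PFKFB4, at 4.15, 4.23 and 4.19 CPM with Astragali Radix, differed by 0.56 (SE 0.14, adjusted p = 0.0057). SLC2A1, at 500, 514 and 512 CPM there, differed by 0.36 (SE 0.05, adjusted p = 1.3e-07). VEGFA, at 68.9, 67.9 and 64.3 CPM there, differed by 0.33 (adjusted p = 2.3e-06). In all 4 the 2 herbs did not overlap.

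The others higher with Cinnamomi Cortex were NDRG1 (0.31), ALDOA (0.25), PFKP (0.22), PKM (0.22), GAPDH (0.21), LDHA (0.19) and HK1 (0.14). The median over the members was 0.12. NDRG1, GAPDH and HK1 lost their calls when some single library was left out, and PFKFB4 did so without replicate 1 of Cinnamomi Cortex (0.47, adjusted p = 0.052). Under the set term 14 members were higher and 2 lower, beside 6.84% and 7.4% of all genes, the lower ones being PFKL (-0.16) and CA9 (-0.21). With the moved set term neither was called (-0.06, adjusted p = 0.53, and -0.11, adjusted p = 0.16), and 0 members were lower. At 100 µg/mL 0 members differed (2 at an unadjusted p under 0.05), with 0.0611% of all genes called, and at 20 µg/mL 0 differed (5 at an unadjusted p under 0.05), with 0% called, in edgeR's test; DESeq2 was not run for these 2.

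Whether the effect of dose differed between the 2 herbs was tested directly, as the change from 20 to 500 µg/mL in Cinnamomi Cortex minus that in Astragali Radix. The difference was called for 2 members, both higher, with 1.11% of all genes called higher. For ALDOC it was 0.73 on the log2 scale (SE 0.11, adjusted p = 1.2e-05), with Astragali Radix at 21.8, 19.5 and 19.2 CPM at the low dose. It was 0.85 in set 1 (adjusted p = 0.033) and 0.66 in set 2 (adjusted p = 0.0038). For SLC2A1 it was 0.26 (SE 0.07, adjusted p = 0.021), with 0.20 in set 1 (adjusted p = 0.85) and 0.29 in set 2 (adjusted p = 0.033). The SLC2A1 call was lost when any of 6 single libraries was left out, with a lowest value of 0.19 (adjusted p = 0.12) without replicate 3 of Cinnamomi Cortex at 500 µg/mL. Under the set term LDHA (0.17, adjusted p = 0.049) was added, beside 1.71% of all genes called higher.

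**Figure D4:**
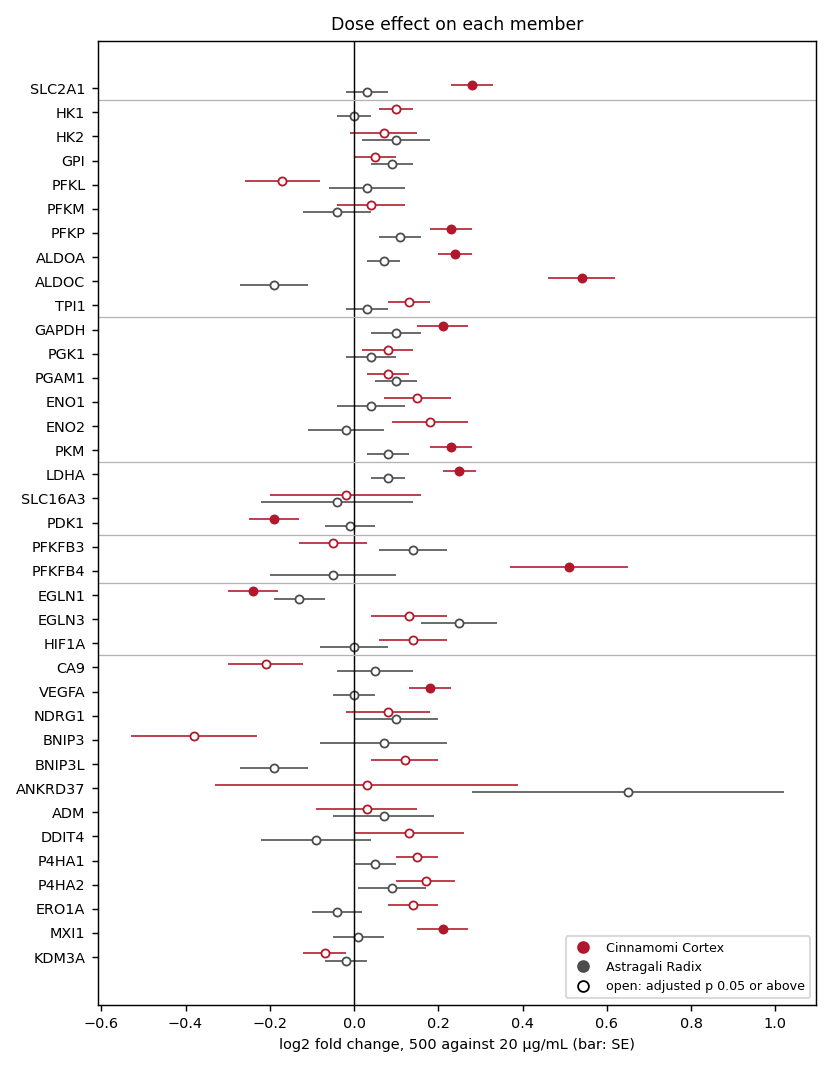
Log2 fold change of each tested member from 20 to 500 µg/mL with Cinnamomi Cortex (red) and Astragali Radix (grey), with SE as bars; filled points have an adjusted p under 0.05. ALDOC (0.54), PFKFB4 (0.51), SLC2A1 (0.28) and LDHA (0.25) are the largest filled increases, and no Astragali Radix point is filled.

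None of the members was called with the other single herbs in edgeR's test, at any dose. For Astragali Radix the share of all genes called was 3.61%, 2.43% and 1.39% at 500, 100 and 20 µg/mL, and 9, 10 and 7 members reached an unadjusted p under 0.05; DESeq2 called 2, 2 and 0. For Cnidii Rhizoma the shares were 1.38%, 0.147% and 0.293%, with 3, 1 and 0 members at an unadjusted p under 0.05. For Rehmanniae Radix Preparata they were 0.593%, 0.202% and 0.44%, with 3, 0 and 0 members. DESeq2 called 0 members for either of these herbs. ALDOC stood at 16.9, 17.7 and 17.4 CPM with Cnidii Rhizoma at 500 µg/mL and at 19.2, 19.2 and 22.3 CPM with Rehmanniae Radix Preparata, beside 18.2 to 19.6 CPM in the vehicle. The largest log2 fold changes at the top dose were those of ANKRD37, at 0.56, 0.39 and 0.68 for the 3 herbs in that order, none of them called.

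The top dose against the lowest likewise gave 0 members for these herbs, with 0.0795%, 0.397% and 0.171% of all genes called for Astragali Radix, Cnidii Rhizoma and Rehmanniae Radix Preparata, 5, 3 and 6 members at an unadjusted p under 0.05, and none called in DESeq2. Cnidii Rhizoma against Rehmanniae Radix Preparata at 500 µg/mL gave 0 members and 0.153% of all genes, with 3 members at an unadjusted p under 0.05; DESeq2 called 1. The difference of their dose effects gave 0 members and 0.0122% of all genes, with 2 members at an unadjusted p under 0.05.

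Members rose with both formulae against the vehicle; all formula libraries lie in set 2 and all vehicle libraries in set 1. At 500 µg/mL Sagunja-tang had 13 members higher and 0 lower, with 11.6% of all genes higher and 8.28% lower, and Samul-tang had 14 higher and 0 lower, with 10.1% and 8.04%. The members' medians were 0.10 and 0.09. With the set term 1 member was called in each, PGAM1, beside 1.07% of all genes higher for Sagunja-tang and 0.636% for Samul-tang. At 100 µg/mL Sagunja-tang had 7 higher and 1 lower (9.24% and 7.04% of all genes) and Samul-tang 11 higher and 2 lower (11.8% and 9.83%). At 20 µg/mL Sagunja-tang had 8 higher and 2 lower (9.43% and 8.63%) and Samul-tang 4 higher and 2 lower (5.58% and 4.9%). With the set term edgeR called 0 members at these lower doses, while 2 and 3 members with Sagunja-tang and 6 and 4 with Samul-tang reached an unadjusted p under 0.05 at 100 and 20 µg/mL; DESeq2 was not run with that term.

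PGAM1 (chr10:97426160-97433441, plus strand) stood at 242, 230 and 211 CPM in the vehicle, at 276, 288 and 273 CPM with Sagunja-tang and at 295, 270 and 264 CPM with Samul-tang at 500 µg/mL. No formula library overlapped the vehicle. The log2 fold changes were 0.29 (SE 0.05, adjusted p = 0.00012) and 0.28 (SE 0.05, adjusted p = 0.00028), and with the set term 0.22 (adjusted p = 0.02) and 0.21 (adjusted p = 0.046). It was called whichever single library was left out, at 0.24 to 0.34 and 0.23 to 0.32. With Cinnamomi Cortex at 500 µg/mL the call was lost without replicate 3 of the vehicle (0.16, adjusted p = 0.063) or of the extract (0.17, adjusted p = 0.055).

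Members called with Cinnamomi Cortex and both formulae at 500 µg/mL were PFKP, PGAM1, ENO1, ENO2 and EGLN3, which is 5 of the 38. The 3 comparisons share the vehicle libraries, and the same overlap was not counted over all genes. With the set term PGAM1 was called in all 3, PFKP and EGLN3 only with Cinnamomi Cortex, and ENO1 and ENO2 in none. Under the moved set term ENO1 was called with Cinnamomi Cortex. ENO1 held 1740, 1810 and 1770 CPM with Sagunja-tang (0.37, SE 0.08, adjusted p = 0.002) and 1790, 1690 and 1650 CPM with Samul-tang (0.31, SE 0.08, adjusted p = 0.0074). ENO2 held 20.9, 18.8 and 21 CPM (0.29, adjusted p = 0.019) and 21, 19.4 and 19.2 CPM (0.26, adjusted p = 0.034). Both enolases lay above the vehicle in all libraries of the formulae. PFKP held 143, 143 and 144 CPM (0.17, adjusted p = 0.016) and 149, 143 and 150 CPM (0.21, adjusted p = 0.004). EGLN3 held 10, 10.9 and 9.63 CPM (0.32, adjusted p = 0.013) and 12.4, 10.4 and 10.3 CPM (0.43, adjusted p = 0.0012). These 2 were also separate from the vehicle in both formulae. With the set term EGLN3 was at 0.36 with Samul-tang (adjusted p = 0.077). Without replicate 3 of the vehicle, ENO2 was called with neither formula (0.22, adjusted p = 0.13, and 0.20, adjusted p = 0.2), ENO1 was not called with Samul-tang (0.26, adjusted p = 0.074), and PFKP (0.17, adjusted p = 0.068) and EGLN3 (0.29, adjusted p = 0.071) were not called with Sagunja-tang.

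SLC16A3 (chr17:82228397-82261129, plus strand) had the largest fold change of the members in both formulae. It went from 37.9, 32.4 and 30.9 CPM in the vehicle to 52.9, 53.2 and 58.8 CPM with Sagunja-tang and 57.9, 51.3 and 48.4 CPM with Samul-tang at 500 µg/mL. The groups were separate. The log2 fold changes were 0.70 (SE 0.18, adjusted p = 0.0058) and 0.63 (SE 0.18, adjusted p = 0.013), and with the set term 0.17 and 0.10, not called. Without replicate 3 of the vehicle the Samul-tang value was 0.57 (adjusted p = 0.073), and without replicate 1 of Samul-tang it was 0.56 (adjusted p = 0.07).

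The same gene showed the sets inside single groups. With Astragali Radix at 500 µg/mL it was at 34.4 CPM in replicate 1, which lies in set 1, and at 48 and 48.9 CPM in the others. With Cinnamomi Cortex at 20 µg/mL it was at 36.1, 49.6 and 49 CPM in that order. With Cinnamomi Cortex at 500 µg/mL, replicate 2 was an exception, in set 2 but at 38 CPM. All Cnidii Rhizoma and Rehmanniae Radix Preparata libraries lay between 29.6 and 41.8 CPM. Paeoniae Radix, with 1 library a dose, was at 43.2, 38.7 and 52.2 CPM at 500, 100 and 20 µg/mL.

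The difference between the sets comes from the fit with the set term and rests on the Cinnamomi Cortex and Astragali Radix groups. The other groups each lie in a single set and do not inform it. Set 2 minus set 1 was called for 17 members, 12 higher and 5 lower, with 18% of all genes higher and 16.2% lower. SLC16A3 had the largest value, 0.53 (SE 0.07, adjusted p = 5.5e-07), followed by PFKL (0.28), CA9 (0.25), DDIT4 (0.25), PFKM (0.23) and ENO1 (0.23). HIF1A had the lowest, -0.25 (SE 0.03, adjusted p = 2.4e-08), and ERO1A (-0.14), GAPDH (-0.09), PKM (-0.08) and LDHA (-0.07) were also lower. ALDOC, PFKFB4 and SLC2A1 were not called between the sets, with 0.05 for ALDOC (adjusted p = 0.43), 0.03 for PFKFB4 (adjusted p = 0.84) and 0.05 for SLC2A1 (adjusted p = 0.12).

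HIF1A showed the opposite course to SLC16A3. It was at 151 CPM in replicate 1 of Astragali Radix at 500 µg/mL and at 123 and 126 CPM in the others, while replicate 2 of Cinnamomi Cortex at 500 µg/mL, in set 2, held 150 CPM. With Sagunja-tang at 500 µg/mL it was at 134, 127 and 126 CPM and with Samul-tang at 131, 125 and 128 CPM, all below the vehicle's 141 to 156 CPM. It was called lower with Samul-tang at 100 µg/mL (-0.24, adjusted p = 0.028), and the value with the set term was 0.01.

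CA9 (chr9:35673856-35681159, plus strand) went from 29.3, 29 and 29.3 CPM to 37.1, 37.1 and 37.5 CPM with Sagunja-tang at 500 µg/mL, a log2 fold change of 0.35 (SE 0.09, adjusted p = 0.0039) that was 0.10 with the set term. With Samul-tang the libraries were at 37.4, 33.9 and 36.9 CPM (0.31, adjusted p = 0.011). Again the groups were separate, and in Astragali Radix at 500 µg/mL replicate 1 was at 30.9 CPM and the others at 36.5 and 37.4 CPM. PFKL went from 65.2, 64.2 and 62.3 CPM to 82.7, 83.5 and 80.6 CPM with Sagunja-tang (0.36, SE 0.09, adjusted p = 0.004). PFKM gave 0.34 and 0.35 for the 2 formulae.

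PFKFB4 with Samul-tang at 500 µg/mL was at 6.2, 4.19 and 4.23 CPM, a log2 fold change of 0.44 (SE 0.15, adjusted p = 0.033). Replicate 1 stood apart, and without it the value was 0.24 (adjusted p = 0.33). DDIT4 with Samul-tang was at 19.5, 14.8 and 15.5 CPM (0.41, SE 0.13, adjusted p = 0.027), and at 0.28 without replicate 1 of Samul-tang (adjusted p = 0.2) and 0.28 without replicate 3 of the vehicle (adjusted p = 0.21). Leaving out replicate 3 of the vehicle left 6, 0 and 2 members called with Sagunja-tang and 5, 5 and 0 with Samul-tang at 500, 100 and 20 µg/mL.

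GAPDH, at chr12:6533927-6538374 (plus strand) and often used as a reference gene, fell with the formulae at lower doses. It was at 3490, 3610 and 3870 CPM in the vehicle and at 2900, 3270 and 2860 CPM with Sagunja-tang at 20 µg/mL, a log2 fold change of -0.28 (SE 0.06, adjusted p = 0.0033). With Samul-tang at 20 µg/mL it was at 3210, 3210 and 3090 CPM (-0.21, adjusted p = 0.034). Both groups lay below the vehicle, and neither was called with the set term. BNIP3 fell with Samul-tang at 20 µg/mL (-0.54, adjusted p = 0.022), with the limit that its pseudogenes set, and LDHA with Sagunja-tang at 20 µg/mL (-0.12, adjusted p = 0.047). Neither fall was called with the set term. Leaving out any of 4 single libraries ended the BNIP3 call, and any of 5 the LDHA call. The GAPDH call at 20 µg/mL was lost without any of 5 single libraries with Samul-tang, and was kept throughout with Sagunja-tang.

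Within each formula the doses share a library set. From 20 to 500 µg/mL edgeR called 0 members with Sagunja-tang (0.00611% of all genes, 6 members at an unadjusted p under 0.05 and, with DESeq2, 1 called) and 0 with Samul-tang (0.141% of all genes, 4 members at an unadjusted p under 0.05 and, with DESeq2, 0 called). Sagunja-tang against Samul-tang at 500 µg/mL gave 0 members, with 0.318% of all genes called, 1 member at an unadjusted p under 0.05; DESeq2 called 0. Their dose effects differed for 0 members, with 0% of all genes called and 0 members at an unadjusted p under 0.05.

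**Figure D5:**
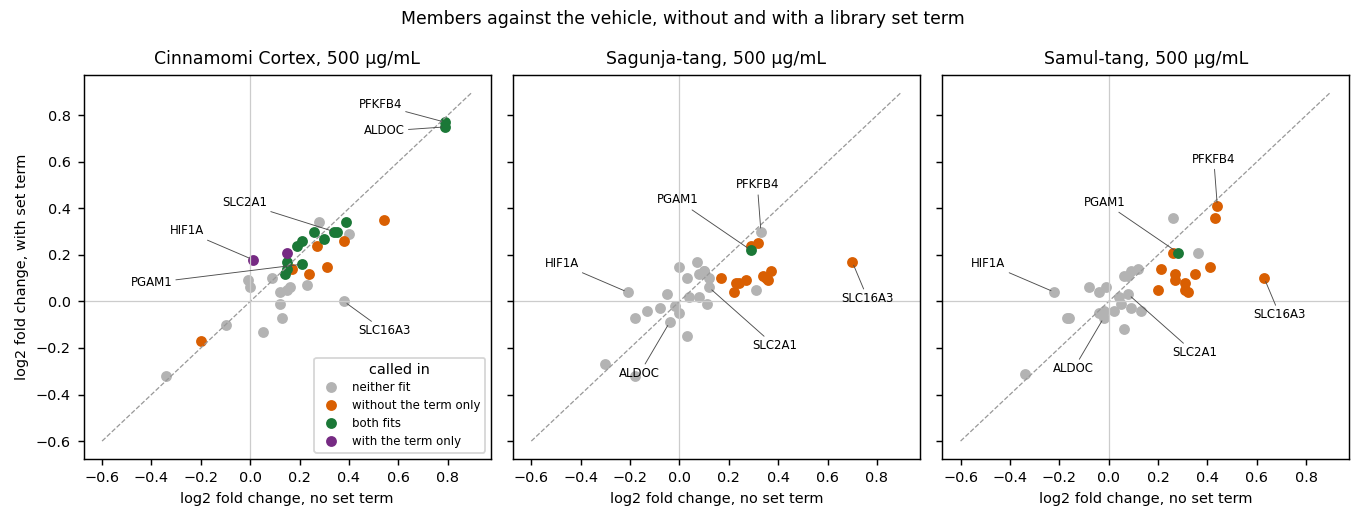
Log2 fold change against the vehicle at 500 µg/mL without (x axis) and with (y axis) the library set term, 1 point per tested member, for Cinnamomi Cortex, Sagunja-tang and Samul-tang; the dashed line marks equal values. ALDOC and PFKFB4 stay on the line with Cinnamomi Cortex (0.79 and 0.75, 0.79 and 0.77), while SLC16A3 is at 0.70 and 0.17 with Sagunja-tang.

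Counting over the top doses without the set term, 5 members were called with 3 extracts, 10 with 2, 12 with 1 and 11 with none, SLC2A3 among the last. With the term only PGAM1 was called with 3 extracts. The same tally was not made over all genes. Of all genes 12.7% were called with Cinnamomi Cortex, 11.6% higher and 8.28% lower with Sagunja-tang, and 10.1% and 8.04% with Samul-tang. Levels with Paeoniae Radix, given without a test, differed from gene to gene at 500, 100 and 20 µg/mL. ALDOC was at 19.9, 20.7 and 19.1 CPM, beside 18.2 to 19.6 CPM in the vehicle, and SLC2A1 at 524, 497 and 476 CPM, beside 491 to 537 CPM. DDIT4 was at 14.7, 15.1 and 20.4 CPM and PGAM1 at 250, 251 and 273 CPM, all above the vehicle's highest libraries of 13.9 and 242 CPM. PKM was at 2460, 2430 and 2110 CPM, beside 2460 to 2500 CPM in the vehicle. HIF1A was at 132, 132 and 123 CPM.

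Related genes outside the 38 were read from lists chosen by function. Among the genes that control HIF, such as VHL, EPAS1 and EGLN2, edgeR called 0 of 12 tested against the vehicle under Cinnamomi Cortex at 500 µg/mL. Of the 12, 2 had an unadjusted p under 0.05, and 12.7% of all genes were called. With each formula 3 rose and 1 fell, across the library sets and without the set term. Of all genes at 500 µg/mL, 11.6% rose and 8.28% fell with Sagunja-tang, and 10.1% and 8.04% with Samul-tang. Of 22 other hypoxia targets, 3 rose with Cinnamomi Cortex: BHLHE40 (0.41), a circadian repressor, PLOD1 (0.21), a collagen lysyl hydroxylase, and KDM4C (0.20), a histone demethylase. The list's median was 0.08. Of all genes 6.09% were called higher in this comparison, and 12.7% in either direction.

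Cinnamomi Cortex at 500 µg/mL had 2 of 14 other genes of glycolysis and gluconeogenesis called, 1 in each direction, a share near the 12.7% of all genes called in that comparison. The hexokinase-like gene HKDC1 was at 26.4, 25.8 and 24.9 CPM in the vehicle and at 29.6, 30.3 and 37 CPM with the extract (0.32, SE 0.08, adjusted p = 0.0027). SLC16A7, the monocarboxylate transporter MCT2, was at 25.1, 24.2 and 26.5 CPM and fell to 18.7, 18.5 and 16.3 CPM (-0.50, SE 0.07, adjusted p = 7.5e-07). Both were separate between the groups. SLC16A7 was also lower at 500 than at 20 µg/mL, by a log2 fold change of -0.46. With Sagunja-tang LDHB, the heart-type lactate dehydrogenase, rose by 0.38 and with Samul-tang by 0.34. Both values lie across the library sets and are given without the set term.

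Of 13 genes for the entry of pyruvate into mitochondria and its use there, 3 rose with Cinnamomi Cortex at 500 µg/mL. The share of all genes called higher was 6.09%. The 3 act on pyruvate inside mitochondria: pyruvate carboxylase PC (0.36) and the pyruvate dehydrogenase subunits PDHB (0.15) and DLAT (0.13). The carriers that bring pyruvate in, MPC1 and MPC2, were not among them. DDIT4 also answers to ATF4, the factor of the integrated stress response, so 9 ATF4-linked genes were read beside it. With Cinnamomi Cortex at 500 µg/mL 7 of the 9 rose, among them CHAC1 (0.90), TRIB3 (0.88) and ATF3 (0.80), beside 6.09% of all genes. From 20 to 500 µg/mL 5 of the 9 rose, beside 4.51% of all genes, and DDIT4 was not called. Whether ATF4 had a part in the DDIT4 change was not tested. The 13 mRNAs encoded by mitochondrial DNA had 0 called with Cinnamomi Cortex in edgeR's test (0 at an unadjusted p under 0.05). Of these mRNAs 11 fell with Sagunja-tang and 10 with Samul-tang at 500 µg/mL, and 0 with the set term. The formula libraries also had fewer mitochondrial counts, 6.37% to 7.06% of the total as group means beside 10% ± 1.36 (SD, n = 3) in the vehicle. Such low shares also occurred in set 2 libraries of the herbs. Astragali Radix at 20 µg/mL had 10.7% in replicate 1, of set 1, and 6.94% and 6.95% in the others. Replicate 2 of Cinnamomi Cortex at 500 µg/mL, in set 2, had 10.27%. The part of the mitochondrial difference in the formula results was not tested.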

How the data were processed

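Total RNA of 60 HT29 libraries was sequenced on a strand-marking kit as paired reads of 100 bases, with RNA integrity above 7, per the labels' protocols. The authors deposited RSEM expected counts per gene, which are estimates and may be fractional, for 60675 genes. The submitters' processing notes name STAR 2.7.3a, RSEM 1.3.3, Trim Galore 0.6.5 and FastQC 0.11.9, with GRCh38. The annotation release is not given in the sources used here, nor is the strand setting. Values with a fraction (8.8%) were rounded like the rest; 213 columns of other samples were not used. Symbols were found for 56558 genes in a names table and for 497 in GENCODE 29, which also gave coordinates and exon lengths.

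Groups came from the labels. edgeR 4.0.16 (R 4.3.3, limma 3.58.1) fitted 57 libraries in 19 groups with TMM factors of 0.938 to 1.043, after filterByExpr with a minimum count of 10. Benjamini-Hochberg adjustment ran over all genes in each of 36 comparisons. Fold changes are log2 with standard errors. Replicates correlated at 0.9869 to 0.9937 and differed by 2.43 to 26.99 times the chi-square of counting alone, so none was counted as a repeat. Same-numbered libraries of compared groups were also correlated after each gene's mean in its group was removed. The number of comparisons in which every such pair correlated above 0.1 was 0. DESeq2 1.42.0, other scaling, no filter, a replicate block, a set term, single sets and leaving out each library were tried. The scripts were tested on simulated data. The members and lists were chosen with earlier results of these data known. All members could be named; up to 4 higher and 4 lower called members in a comparison, and those called with 3 extracts, are given in full, and up to 3 called genes of other lists.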

Additional observations from a re-analysis of the deposited data

Results flagged for a closer look

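Of the differences in dose effect tested between paired extracts, 2 members passed the test, both between Cinnamomi Cortex and Astragali Radix. The change of ALDOC from 20 to 500 µg/mL was larger with Cinnamomi Cortex by 0.73 on the log2 scale (SE 0.11, edgeR adjusted p = 1.2e-05), and the 3 libraries at 500 µg/mL held 30.5 to 35.1 CPM with Cinnamomi Cortex and 17.3 to 18.4 CPM with Astragali Radix. Leaving out any 1 library gave 0.67 to 0.78, always called. The change of SLC2A1 was larger by 0.26 (SE 0.07, edgeR adjusted p = 0.021), with 621 to 709 CPM and 500 to 514 CPM at the top dose. Leaving out single libraries gave 0.19 to 0.29 for SLC2A1, and 6 of them ended its call.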

How the results depend on the processing

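The counts of members called by edgeR depend most on the vehicle and the library set. The counts in this section are given without the share of all genes called under each setting. They therefore do not show whether a change of setting acted on the members more than on other genes. With the set term the count became 0 for Cinnamomi Cortex at 100 µg/mL (2 without it), 1, 0 and 0 for Sagunja-tang (13, 8 and 10) and 1, 0 and 0 for Samul-tang (14, 13 and 6) at 500, 100 and 20 µg/mL. Placing replicate 2 of Cinnamomi Cortex at 500 µg/mL in set 1, a choice made after seeing the data, gave the same counts of 0, 1, 0, 0, 1, 0 and 0 here. For Cinnamomi Cortex at 500 µg/mL it called 18 (17 higher, 1 lower) where the plain term called 15 (all higher), from 20 to 500 µg/mL 15 (13 higher, 2 lower) where the plain term called 17, and against Astragali Radix 15 (all higher) where it called 16 (14 higher, 2 lower). Cnidii Rhizoma against Rehmanniae Radix Preparata at 500 µg/mL gave 1 with either term, 1 with DESeq2 and 1 with a replicate block of either kind (0 without). Set 1 alone, with fewer libraries, gave 8 for Cinnamomi Cortex at 500 µg/mL (20), 0 at 100 µg/mL, 2 from 20 to 500 µg/mL (12) and 2 against Astragali Radix (11).

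Without the filter on low counts the counts were 5 and 5 for Cinnamomi Cortex at 100 and 20 µg/mL (2 and 0), 4, 5 and 4 for Astragali Radix at 500, 100 and 20 µg/mL (0 each) and 11 for Samul-tang at 20 µg/mL (6). DESeq2 gave 2 for Cinnamomi Cortex at 20 µg/mL, 2 and 2 for Astragali Radix at 500 and 100 µg/mL and 1 for Sagunja-tang from 20 to 500 µg/mL (0 each).

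Replicate numbers did not pair the samples throughout. The correlations given here are between same-numbered libraries after each gene's mean in its group was removed, not between whole expression levels. With Cinnamomi Cortex and Astragali Radix, though, the number follows the library set, replicate 1 being in set 1 and replicates 2 and 3 in set 2. For these 2 herbs at 500 µg/mL the correlations by replicate were 0.22, -0.05 and 0.22. Between 500 and 20 µg/mL of Astragali Radix they were 0.33, 0.05 and 0.18. In 0 of 18 comparisons with the vehicle and 0 of 9 within a pair of extracts or an extract did every same-numbered pair correlate above 0.1 (correlations of -0.17 to 0.13 and -0.06 to 0.33). With the replicate number as a block the counts were 21 for Cinnamomi Cortex at 500 µg/mL, 3 at 20 µg/mL, 3 and 3 for Astragali Radix at 500 and 100 µg/mL, 10 for Samul-tang at 20 µg/mL, 14 for Cinnamomi Cortex from 20 to 500 µg/mL and 14 against Astragali Radix. A block within each sample code, added after seeing the data, gave 18 for Cinnamomi Cortex against Astragali Radix and 2, 2 and 1 from 20 to 500 µg/mL for Rehmanniae Radix Preparata, Sagunja-tang and Samul-tang.

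Leaving out 1 library at a time gave 11 to 19, 0 to 10 and 0 to 6 members for Cinnamomi Cortex at 500, 100 and 20 µg/mL, 0 to 3, 0 to 5 and 0 to 7 for Astragali Radix, 6 to 15, 0 to 11 and 2 to 12 for Sagunja-tang, 5 to 16, 5 to 15 and 0 to 8 for Samul-tang, 8 to 15 for Cinnamomi Cortex from 20 to 500 µg/mL, 0 to 1 for Sagunja-tang likewise, 9 to 13 for Cinnamomi Cortex against Astragali Radix, and 0 to 0 for all other comparisons. For Cinnamomi Cortex at 100 and 20 µg/mL and Astragali Radix at 500, 100 and 20 µg/mL the highest counts came without replicate 1 of the herb, the one in the vehicle's set. Of the 111 called pairs of member and comparison, the set term left 40 called, weakened 70 below the threshold and turned 1: HIF1A with Samul-tang at 100 µg/mL was 0.01. With the moved library it left 44, and 3 turned, HIF1A again at 0.01, CA9 with Sagunja-tang at 100 µg/mL at -0.02 and SLC16A3 with Samul-tang at 20 µg/mL at -0.01. The cause was not tested. DESeq2 weakened 1, the other scaling 3 and no filter 17. Low counts limit SLC2A3, BNIP3, ANKRD37 and PFKFB4.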
